A study of Arabidopsis thaliana with 16 samples.

Results

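Clade A protein phosphatases 2C (PP2Cs) are the negative regulators at the head of abscisic acid (ABA) signalling. The family was taken here as 9 genes chosen by locus, out of 37336 loci counted in each library: ABI1, ABI2, HAB1, HAB2, AHG1, AHG3, HAI1, HAI2 and HAI3. Their transcripts were measured by 3'RNA-seq, a method primed at the poly(A) tail that samples the 3′ end of each transcript, in freshly harvested Arabidopsis seeds imbibed for 72 h at 4°C. The 16 libraries fall into 4 groups of 4: WT (Col-0) and dog1-3, each on MS agar medium without salt (mock) or with 100 mM NaCl. dog1-3 is a single T-DNA insertion line in DOG1, a key gene of seed dormancy, so that a difference between the genotypes rests on that line. The labels number the replicates but do not say whether they were separate seed harvests, and p-values measure only the spread between these libraries.

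ABA is the hormone that holds seeds dormant and slows germination under salt stress. In the absence of ABA, clade A PP2Cs dephosphorylate and silence the SnRK2 kinases. ABA bound to its PYR/PYL receptors blocks the phosphatases, and the freed SnRK2s then activate transcription factors such as ABI5. AHG1 and AHG3 matter most among these phosphatases in seeds, and both bind the DOG1 protein. Several PP2C genes are themselves induced by ABA, which gave the HAI (highly ABA-induced) genes their name.

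Total counts ranged from 1416354 to 3635844 per library, and WT mock had the highest median (3506887, against 1924357.5 to 1980174.5 in the other groups). Counts were scaled to CPM (counts relative to library size) with edgeR's TMM factors, and 12697 genes passed the filter on low counts. Of the 9 PP2C genes, 8 passed, and HAI1 did not. DOG1 (AT5G45830), examined as a check of the labels, lay between 63.1 and 170 CPM in the WT libraries and between 14.2 and 23.5 CPM in the dog1-3 libraries. Reverse transcription reactions of mock and NaCl seeds were pooled separately, so that the pool and the salt treatment cannot be told apart. Seed storage protein and oleosin markers were all detected (8 of 8), as were endosperm markers (4 of 4), whereas the 3 seed coat markers summed to 2.77 CPM at most, with TT10 at 0 in WT mock, WT NaCl and dog1-3 mock and TT12 at 0 in both mock groups.

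The genes lie on all 5 chromosomes in the TAIR10.1 annotation. The sequences that follow are the 250 bases before the annotated gene start, taken from RefSeq's TAIR10.1 genome, 5′ to 3′ on the strand of the gene. They are shown for the 4 genes with the strongest tests of a higher level in dog1-3 mock seeds and for ABI1, the gene that was lower there. Capitals mark ACGTG, the core of the ABA-responsive element bound by ABI5-type factors, on either strand (CACGT on the other). Overlapping matches, such as the 2 strands of the G-box CACGTG, were merged into 1 site.
AHG1 (chr5:21026555-21026804, plus strand): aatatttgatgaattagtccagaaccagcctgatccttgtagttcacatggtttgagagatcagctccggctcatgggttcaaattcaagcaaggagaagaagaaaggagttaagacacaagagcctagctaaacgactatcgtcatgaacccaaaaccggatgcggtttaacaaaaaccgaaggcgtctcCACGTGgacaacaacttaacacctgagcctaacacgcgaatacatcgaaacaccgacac
AHG3 (chr3:3585851-3586100, minus strand): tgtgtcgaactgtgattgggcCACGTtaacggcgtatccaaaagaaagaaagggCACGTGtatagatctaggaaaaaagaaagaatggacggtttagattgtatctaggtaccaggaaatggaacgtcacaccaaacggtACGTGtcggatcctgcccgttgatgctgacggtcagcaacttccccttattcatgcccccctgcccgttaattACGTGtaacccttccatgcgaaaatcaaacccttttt
HAI2 (chr1:2282829-2283078, minus strand): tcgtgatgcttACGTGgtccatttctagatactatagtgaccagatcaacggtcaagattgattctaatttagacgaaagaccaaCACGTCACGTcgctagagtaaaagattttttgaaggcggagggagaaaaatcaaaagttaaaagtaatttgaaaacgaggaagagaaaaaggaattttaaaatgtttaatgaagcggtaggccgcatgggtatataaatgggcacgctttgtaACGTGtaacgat
HAI3 (chr2:12608425-12608674, plus strand): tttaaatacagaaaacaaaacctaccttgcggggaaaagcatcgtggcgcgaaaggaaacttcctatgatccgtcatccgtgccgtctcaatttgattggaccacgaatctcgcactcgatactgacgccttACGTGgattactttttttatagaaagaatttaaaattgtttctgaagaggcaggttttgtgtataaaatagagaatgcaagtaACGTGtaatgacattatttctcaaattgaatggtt
ABI1 (chr4:13222377-13222626, minus strand): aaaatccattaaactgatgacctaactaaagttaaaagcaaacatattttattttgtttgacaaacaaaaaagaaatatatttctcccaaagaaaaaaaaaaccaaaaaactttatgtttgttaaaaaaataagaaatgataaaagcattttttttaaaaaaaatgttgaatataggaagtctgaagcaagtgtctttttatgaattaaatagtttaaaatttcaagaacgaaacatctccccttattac

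AHG3 and HAI2 held 4 such sites each, HAI3 and HAB2 held 2 each, and AHG1 and HAB1 held 1 each. The single site of AHG1 was a G-box that began 59 bases before the annotated start. No match was found in these windows of ABI1, ABI2 and HAI1. At least 1 site was thus present in 6 of the 9 windows, and at least 2 in 4 of 9. Over all 27443 protein-coding genes, 22.9% of windows of the same length held at least 1 site and 4.98% held at least 2. A match is a description of the sequence and was not tested for binding.

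The phosphatase genes differed widely in level. Expressed per kb of annotated transcript, HAI2 was the highest in WT mock seeds (67.2 ± 9.32 CPM per kb; SD, n = 4), followed by AHG3 (51.0 ± 1.95 CPM per kb; SD, n = 4). ABI1 and HAI3 followed at 19.0 and 18.2 CPM per kb, with overlapping ranges. AHG1 stood at 12.2 CPM per kb, apart from both its neighbours in the order. HAB2, HAB1 and ABI2 had 7.49, 4.80 and 2.79 CPM per kb, and the range of HAB1 overlapped those of both HAB2 and ABI2. HAI1 was the lowest, at 0.610 CPM per kb. HAI2 and AHG3 held the first and second places in all 4 groups, and ABI2 and HAI1 the last places. In dog1-3 mock seeds HAI3 (46.8 CPM per kb) and AHG1 (34.1 CPM per kb) came next, each apart from its neighbours, and ABI1 (11.6 CPM per kb) overlapped HAB1 (10.2 CPM per kb). Because the reads come from 3′ ends, division by length lowers the long transcripts, and 12 of the 36 ranks changed when CPM was used without it. The separations changed too. In WT mock seeds, AHG1 at 19.2 CPM overlapped both HAB2 (19.8 CPM) and HAB1 (13.4 CPM). ABI1 (41.3 CPM) was there apart from HAI3 (27.1 CPM).

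Mock seeds of dog1-3 had more transcript of most clade A phosphatases than mock seeds of WT. AHG1, HAI3, HAB1, HAI2, ABI2 and AHG3 rose, and ABI1 fell. Genes were called at an adjusted p under 0.05 (Benjamini-Hochberg over all genes, from edgeR's quasi-likelihood test) and a change of more than 1.5-fold. By this rule 6 of the 8 tested members were higher and 1 was lower, against 9.94% of all tested genes higher and 8.44% lower. The median log2FC of the 8 was 0.82, beside -0.0089 for all genes. The groups did not overlap for any of these 7 genes, with 6 higher and 1 lower in dog1-3, against 16.1% and 15.7% of all tested genes whose groups did not overlap in that direction. Under the FDR limit alone 7 members were higher and 1 lower, against 18.5% and 16.9% of all genes. A test against the 1.5-fold limit itself (edgeR's glmTreat) called 4 members higher, AHG1, HAI3, HAI2 and HAB1, against 4.25% of all genes higher and 2.37% lower.

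AHG1 (AT5G51760), which is expressed mainly in seeds and is largely resistant to inhibition by the ABA receptors, changed most. Its 4 WT mock libraries had 22.4, 21.4, 17.2 and 15.7 CPM, and its 4 dog1-3 mock libraries had 53.8, 54.1, 52.7 and 53.5 CPM. All dog1-3 libraries lay far above the highest WT library and close to each other. The log2FC was 1.5004 (SE, the standard error, 0.13; edgeR adjusted p = 1.37e-12), a 2.83-fold higher level. HAI3 (AT2G29380) rose from 24.6, 30.1, 24.1 and 29.8 CPM in WT mock to 59.1, 81.0, 73.3 and 66.7 CPM in dog1-3 mock. Its lowest dog1-3 library was above every WT library, and the log2FC was 1.37 (SE 0.11, edgeR adjusted p = 9.38e-13).

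AHG3 (AT3G11410, PP2CA in the annotation), the other DOG1-binding phosphatase, was more abundant and changed less. It had 91.3, 87.0, 94.3 and 94.6 CPM in WT mock and 130, 143, 165 and 130 CPM in dog1-3 mock. The groups were apart, and the log2FC was 0.63 (SE 0.084, edgeR adjusted p = 1.31e-07). This change lay just past the fold limit, and it fell under it, at 0.55, without dog1-3 mock replicate 3. HAI2 (AT1G07430), the most abundant member, went from 134, 103, 131 and 145 CPM in WT mock to 204, 251, 230 and 229 CPM in dog1-3 mock (log2FC 0.84, SE 0.088, edgeR adjusted p = 5.21e-10). All its dog1-3 libraries were above all its WT libraries.

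ABI1, ABI2, HAB1 and HAB2 are the close relatives of each other that were found first through ABA-insensitive mutants and sequence homology, and they did not move together. HAB1 (AT1G72770) rose from 10.8, 8.67, 17.97 and 16.2 CPM in WT mock to 24.0, 32.1, 38.9 and 18.9 CPM in dog1-3 mock (log2FC 1.06, SE 0.20, edgeR adjusted p = 5.66e-05). The lowest dog1-3 library was only just above the highest WT library. ABI2 (AT5G57050), a gene of low level with 17 to 33 counts per WT mock library, rose from 6.33, 8.95, 4.43 and 5.56 to 9.59, 10.4, 11.5 and 12.6 CPM (log2FC 0.80, SE 0.22, edgeR adjusted p = 0.00425). HAB2 (AT1G17550) had 15.3, 24.4, 19.9 and 19.6 CPM in WT mock and 24.0, 31.7, 28.6 and 23.1 CPM in dog1-3 mock. Its groups overlapped, and with a log2FC of 0.44 (adjusted p = 0.0243) it passed the FDR limit but not the fold limit.

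ABI1 (AT4G26080) was the exception in direction. It had 36.1, 45.5, 44.6 and 39.0 CPM in WT mock and 22.9, 24.3, 29.2 and 24.1 CPM in dog1-3 mock. Every dog1-3 library was below every WT library, and the level fell by 0.73 on the log2 scale (SE 0.12, edgeR adjusted p = 5.54e-06). ABI1 is also the only member that overlaps another gene in the annotation: its end shares 22 bases with MEK1 on the opposite strand, and the strand setting of the counting is not given in the sources used here. ABI2 and HAB1 overlap no gene, but a gene on the same strand starts within 300 bases downstream of each, AT5G57060 and AT1G72780. The part of these neighbours in the counts was not tested. None of the 46 stretches of 50 bases tested from the 3′ end of each member occurred elsewhere in the genome as an exact match. Copies that differ by single bases were not searched for.

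HAI1 (AT5G59220) was close to the detection limit, with 1 to 18 counts per library and 3 counts or fewer in 5 of 16. It had 6, 3, 5 and 2 counts in WT mock, 3, 3, 5 and 4 in WT NaCl, 6, 18, 1 and 8 in dog1-3 mock and 6, 5, 4 and 7 in dog1-3 NaCl. In CPM this was 1.19 ± 0.760, 1.93 ± 0.667, 3.67 ± 2.54 and 3.47 ± 1.43 in the same order (SD, n = 4). The groups overlapped in every comparison, and in exact two-sided permutation tests over 4 against 4 libraries, whose smallest possible p is 0.0286, p was 0.114 for dog1-3 against WT in mock, 0.0857 in NaCl, 0.229 for NaCl in WT and 0.971 for NaCl in dog1-3. Without the filter on low counts edgeR gave HAI1 a log2FC of 1.79 in dog1-3 against WT in mock (adjusted p = 0.000759) and DESeq2 one of 1.76 (adjusted p = 0.0165), which would make it another called member there.

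**Figure D1:**
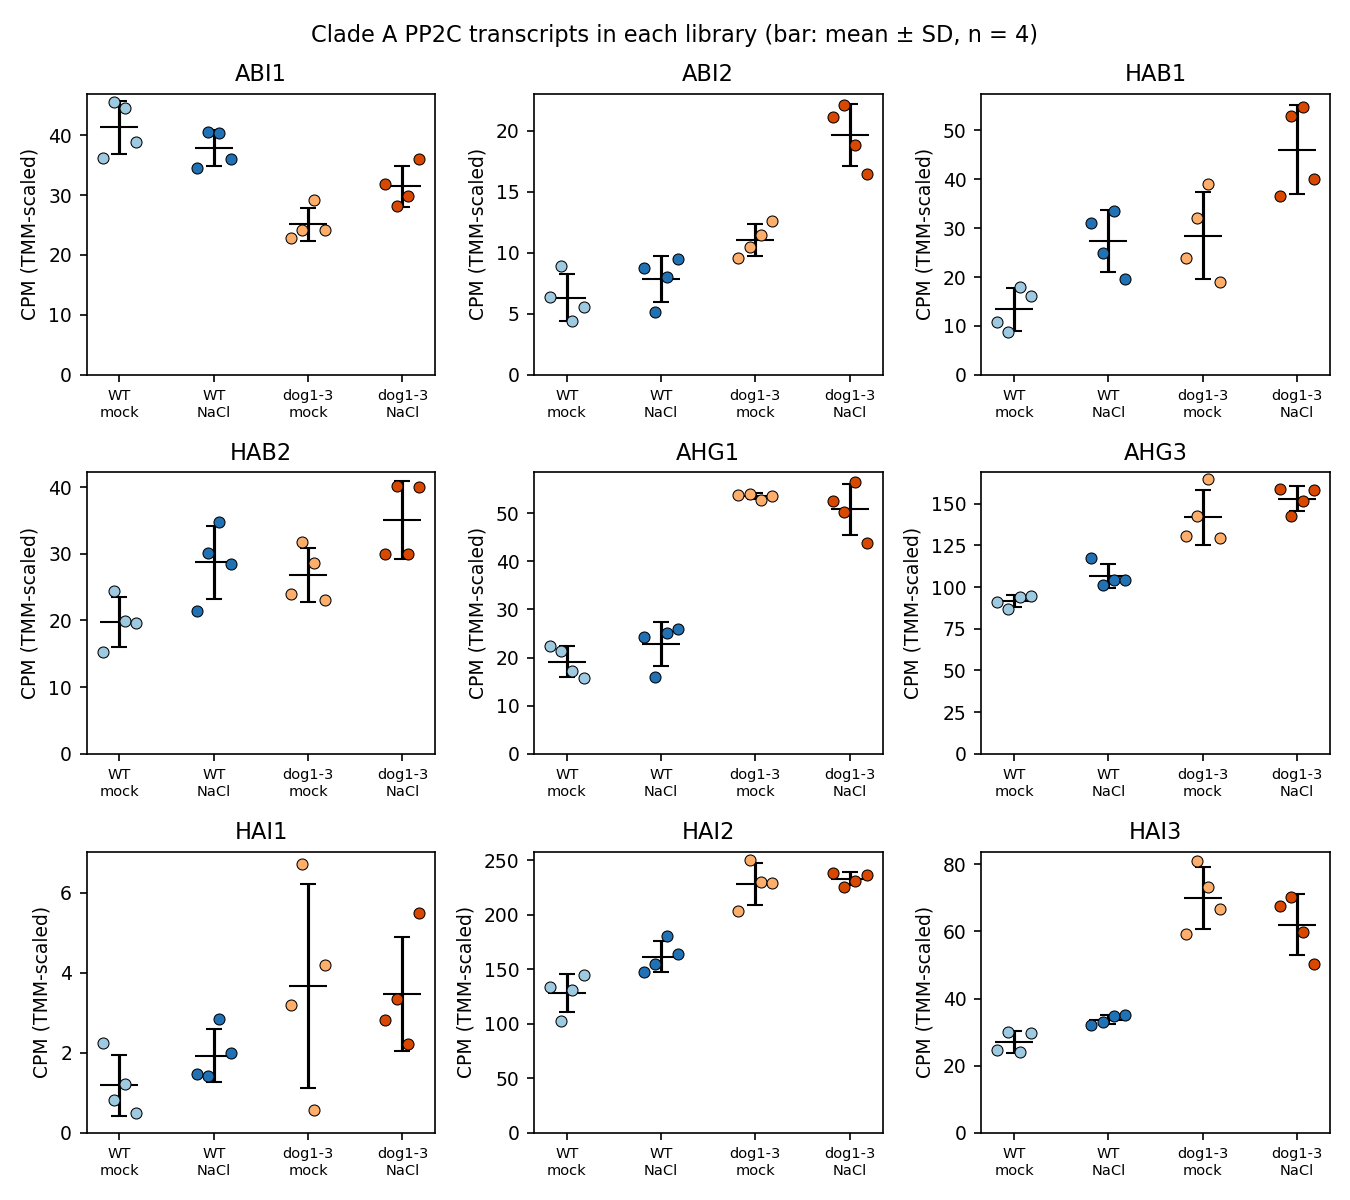
Level of each clade A PP2C gene in the 16 libraries. Points are single libraries in CPM (TMM-scaled, linear axis from 0), and bars are the mean ± SD of 4 libraries per group. The dog1-3 points of AHG1, HAI3, AHG3, HAI2 and, only just, ABI2 lie above all WT points in both treatments, whereas those of ABI1 in mock lie below all WT mock points.

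On NaCl the difference between the genotypes kept its direction for the 8 tested members but was called for fewer of them. ABI2, AHG1, HAI3 and HAB1 rose in dog1-3, and the levels of ABI1 did not pass the test. Of 8 members 4 were called higher, against 8.16% of all tested genes, and 7.54% of all genes were called lower. No member was called lower by edgeR or by DESeq2, and at an unadjusted p under 0.05 there were 6 members higher and 1 lower, against 19.3% and 19.1% of all genes. The median log2FC was 0.65, beside -0.018 for all genes. The groups were apart, with dog1-3 higher, for 6 members, against 14% of all genes, and 12.9% of all genes were apart with dog1-3 lower. Under the FDR limit alone 6 members were higher, against 15% of all genes higher and 13.6% lower, and glmTreat called 3 higher, against 2.95% higher and 2.12% lower.

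AHG1 again stood out, with 24.3, 16.01, 25.1 and 26.0 CPM in WT NaCl and 52.5, 50.3, 56.5 and 43.9 CPM in dog1-3 NaCl (log2FC 1.17, SE 0.14, edgeR adjusted p = 1.82e-08). ABI2 had 8.74, 5.18, 7.97 and 9.50 CPM in WT NaCl and 21.1, 22.1, 18.8 and 16.5 CPM in dog1-3 NaCl. Its log2FC of 1.34 (SE 0.22, edgeR adjusted p = 9.09e-06) was the largest of the 8 in this comparison. HAI3 rose from 32.1, 33.0, 34.7 and 35.0 CPM to 67.6, 70.4, 59.8 and 50.2 CPM (log2FC 0.89, SE 0.13, edgeR adjusted p = 5.19e-07).

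HAB1 stood at 31.1, 25.0, 33.6 and 19.5 CPM in WT NaCl and at 36.6, 53.0, 54.8 and 39.997 CPM in dog1-3 NaCl (log2FC 0.76, SE 0.19, edgeR adjusted p = 0.00200). Its groups came near each other but did not overlap, and the call was lost under scaling by library size alone (log2FC 0.53) and under glmTreat (adjusted p = 0.587). AHG3 and HAI2 passed the FDR limit and missed the fold limit, with log2FC of 0.52 (adjusted p = 1.51e-05) and 0.53 (adjusted p = 1.62e-05). For AHG3 the libraries had 118, 101, 104 and 105 CPM in WT NaCl and 159, 143, 152 and 158 CPM in dog1-3 NaCl. For HAI2 they had 147, 154, 180 and 164 CPM in WT NaCl and 239, 225, 231 and 237 CPM in dog1-3 NaCl, and the change of HAI2 passed the fold limit, at 0.59, without WT NaCl replicate 3. HAB2 (log2FC 0.27, adjusted p = 0.218) and ABI1 (log2FC -0.27, adjusted p = 0.127) were not called, and their groups overlapped.

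Marker transcripts moved with the genotype and in part with salt. The summed level of the 8 seed storage markers ranged from 32258 to 56434 CPM in WT mock, 71873 to 84852 CPM in dog1-3 mock, 45459 to 68186 CPM in WT NaCl and 87153 to 112163 CPM in dog1-3 NaCl. The 4 endosperm markers summed to between 15093 and 21290 CPM in WT mock, 25877 and 34248 CPM in dog1-3 mock, 16677 and 24323 CPM in WT NaCl and 22870 and 29728 CPM in dog1-3 NaCl. The genotypes were apart for the storage markers in both treatments and for the endosperm markers in mock, and overlapped for the endosperm markers in NaCl. The 5 green seedling markers summed to between 367 and 450 CPM in WT mock, 484 and 568 CPM in dog1-3 mock, 557 and 644 CPM in WT NaCl and 827 and 1005 CPM in dog1-3 NaCl, with LHCB2.1 at 0 in WT mock and dog1-3 NaCl. These green markers were apart between the genotypes in both treatments and between mock and NaCl in both genotypes, and the storage markers were apart between mock and NaCl in dog1-3. The part of any of these markers in the differences of the phosphatase genes, by genotype or by salt, was not tested. In bulk seeds, fewer cells of a type and less RNA per cell cannot be told apart.

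**Figure D2:**
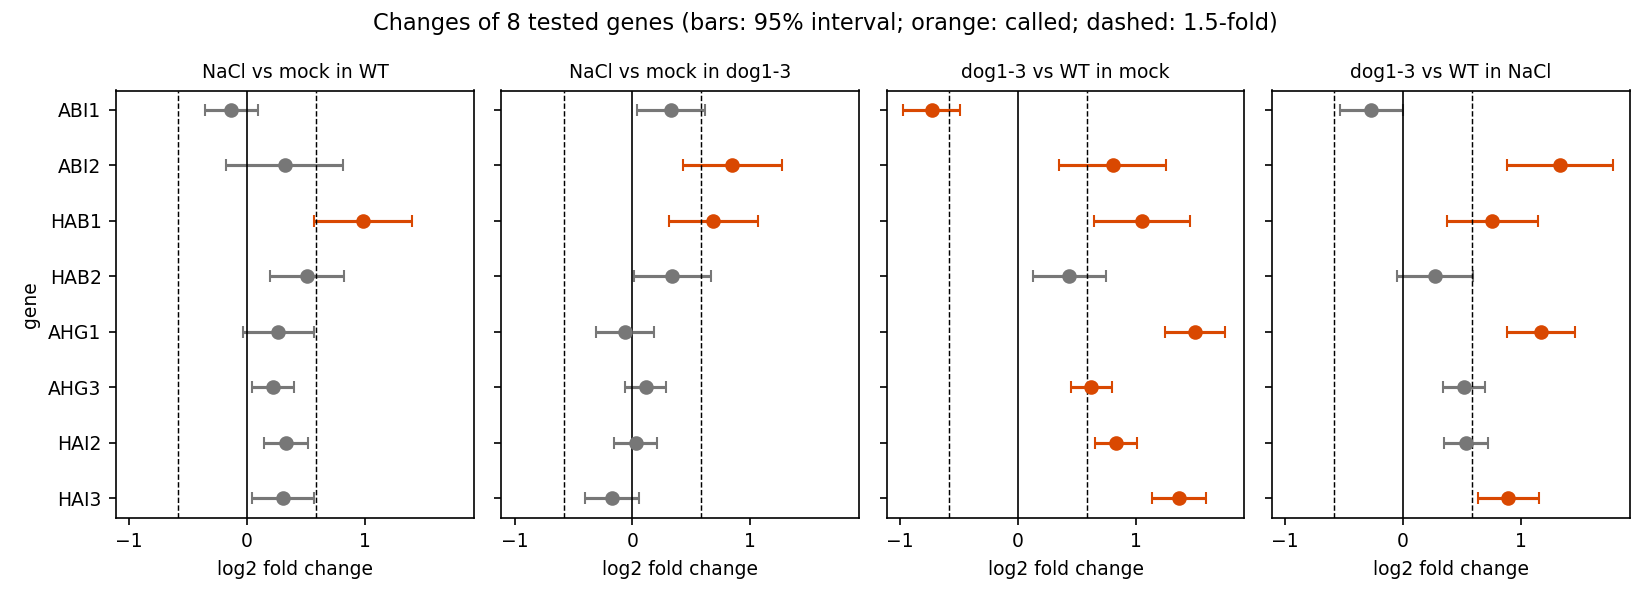
Log2 fold change of the 8 tested genes in the 4 comparisons, from edgeR's model over 16 libraries. Points are estimates, bars their 95% intervals, dashed lines the 1.5-fold limit, and orange marks called genes. In dog1-3 against WT in mock 7 genes are called, and ABI1 is the only one on the left.

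Fewer members were called for salt than for the genotype. In WT, HAB1 was the single member called after NaCl treatment, and it rose. This is 1 of 8 members, against 9.46% of all tested genes called higher and 7.07% called lower. At an unadjusted p under 0.05, 5 members were higher and 0 lower, against 23% and 21.1% of all genes, and DESeq2 also called 1 higher and 0 lower. glmTreat called 0, against 2.51% of all genes higher and 1.13% lower. The median log2FC of the 8 members was 0.31, beside -0.0019 for all genes, and the NaCl libraries were all above the mock libraries for 4 of them, against 16.4% of all genes apart in this direction and 15.2% in the other.

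HAB1 rose in WT from 10.8, 8.67, 17.97 and 16.2 CPM in mock to 31.1, 25.0, 33.6 and 19.5 CPM in NaCl, a log2FC of 0.98 (SE 0.21, edgeR adjusted p = 0.000233) or 1.97-fold. Under the FDR limit alone 4 members were higher, against 18.9% of all genes higher and 16.5% lower, and the 3 beside HAB1 were HAB2 (log2FC 0.51, adjusted p = 0.00895), HAI2 (log2FC 0.33, adjusted p = 0.00397) and AHG3 (log2FC 0.22, adjusted p = 0.0467). HAB2 passed the fold limit too when WT mock replicate 2 or WT NaCl replicate 1 was left out, with log2FC of 0.62 and 0.63. HAI3 had a log2FC of 0.30 (adjusted p = 0.0657) with the groups apart, AHG1 one of 0.26 (adjusted p = 0.172), ABI2 one of 0.32 (adjusted p = 0.329) and ABI1 one of -0.14 (adjusted p = 0.367).

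In dog1-3, salt raised ABI2 and HAB1. These are 2 of 8 members, against 7.53% of all tested genes called higher and 7.16% called lower. At an unadjusted p under 0.05, 4 members were higher and 0 lower, against 19.9% and 18.7% of all genes, and DESeq2 called 2 higher and 0 lower. The FDR limit alone gave the same 2 members, against 15.3% of all genes higher and 13.5% lower, and glmTreat called 0, against 1.52% and 0.669%. Only ABI2 had groups apart, against 14.1% of all genes apart with NaCl higher and 12.7% with NaCl lower. ABI2 rose from 9.59, 10.4, 11.5 and 12.6 CPM in dog1-3 mock to 21.1, 22.1, 18.8 and 16.5 CPM in dog1-3 NaCl, without overlap (log2FC 0.85, SE 0.21, edgeR adjusted p = 0.00169).

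HAB1 rose from 24.0, 32.1, 38.9 and 18.9 CPM to 36.6, 53.0, 54.8 and 39.997 CPM, with 1 mock library inside the range of the NaCl libraries (log2FC 0.68, SE 0.19, edgeR adjusted p = 0.00488). Without dog1-3 mock replicate 4 or dog1-3 NaCl replicate 3 its log2FC was 0.54 or 0.58, under the fold limit. The other members had log2FC between -0.17 (HAI3) and 0.34 (HAB2), and their groups overlapped. AHG1 (log2FC -0.06, 95% interval -0.31 to 0.18), AHG3 (0.11, interval -0.06 to 0.29), HAI2 (0.03, interval -0.15 to 0.21) and HAI3 (-0.17, interval -0.40 to 0.05) had intervals that stayed inside the 1.5-fold limit in both directions. The signs of the AHG3 and HAI2 values turned when libraries were scaled by size alone (-0.06 and -0.15), and that of HAI2 also without dog1-3 mock replicate 1 (-0.02).

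Whether the salt response depended on DOG1 was tested with the interaction, the log2FC of NaCl in dog1-3 minus that in WT. None of the 8 members was called, and over all tested genes the share called was 0.00788%, a single gene. At an unadjusted p under 0.05 the interaction of 3 members differed from 0, DESeq2 called 0 members, and 826 of all genes, 6.51%, had such an unadjusted p. HAI3 had an interaction of -0.48 (95% interval -0.82 to -0.13, unadjusted p = 0.00851, edgeR adjusted p = 0.616), with a salt log2FC of 0.30 in WT and -0.17 in dog1-3. ABI1 had one of 0.46 (interval 0.10 to 0.83, unadjusted p = 0.0146, edgeR adjusted p = 0.654) and HAI2 one of -0.30 (interval -0.56 to -0.05, unadjusted p = 0.0217, edgeR adjusted p = 0.694). AHG1 had one of -0.33 (interval -0.72 to 0.06) and AHG3 one of -0.11 (interval -0.36 to 0.14). A p that missed the threshold does not show that the responses were alike, and the intervals give the sizes of difference that these libraries allow.

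Summed over the 9 genes, the level was 348 ± 15.4 CPM in WT mock, 429 ± 24.8 CPM in WT NaCl, 589 ± 50.9 CPM in dog1-3 mock and 635 ± 5.35 CPM in dog1-3 NaCl (SD, n = 4 each). The lowest dog1-3 library, at 531 CPM, was above the highest WT library, at 464 CPM. Shares of this sum moved in opposite directions for different members. ABI1 made up 11.9% ± 1.57 of the family's counts in WT mock and 4.27% ± 0.333 in dog1-3 mock (SD, n = 4 each), with 8.85% and 4.97% in the NaCl groups. AHG1 made up 5.54% ± 1.14 in WT mock and 9.14% ± 0.836 in dog1-3 mock, and HAI3 7.81% ± 1.04 and 11.9% ± 0.689 (SD, n = 4 each). HAI2 stayed between group means of 36.7% and 38.8% and AHG3 between 24.1% and 26.4%.

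**Figure D3:**
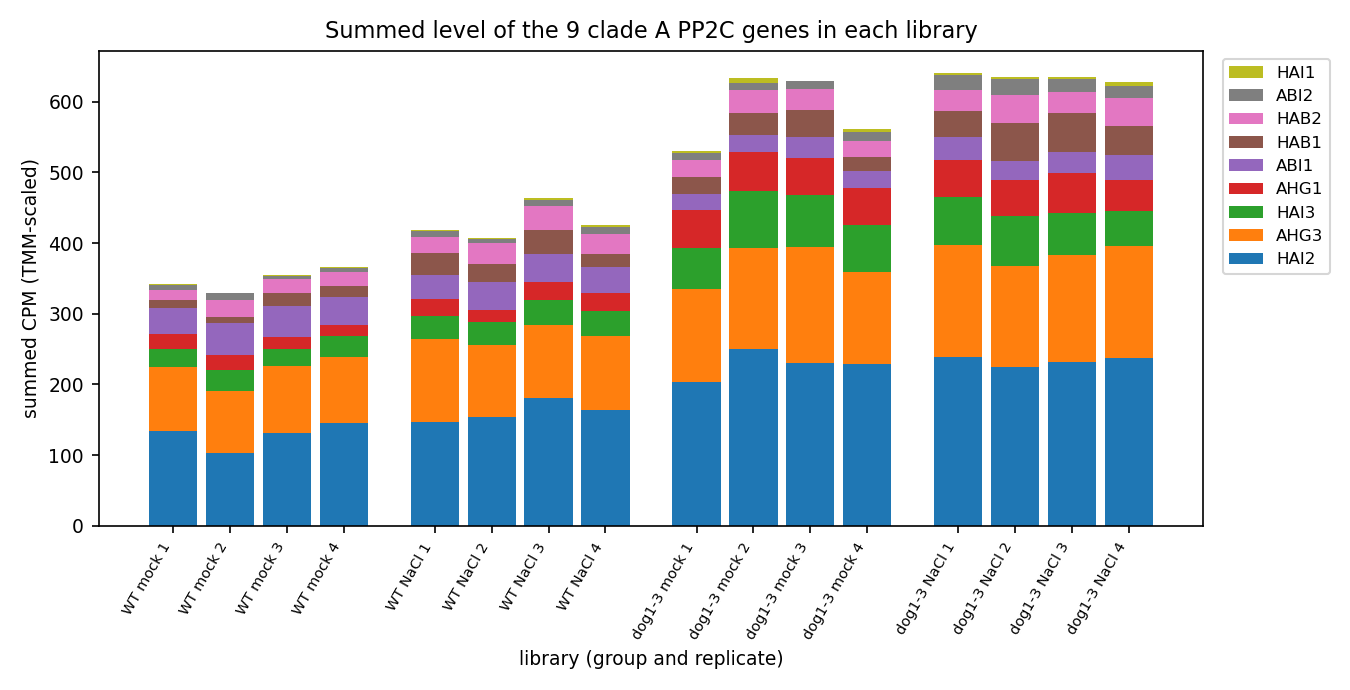
Summed level of the 9 genes in each of the 16 libraries, in CPM (TMM-scaled, linear axis from 0). Each bar is a library, stacked by gene. The dog1-3 bars all exceed the WT bars, and HAI2 and AHG3 form the largest parts of every bar.

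AHG1 and AHG3, the partners of DOG1, were also compared within each library, which removes the scaling between libraries. AHG1 counts were 24.6, 24.7, 18.4 and 16.7% of AHG3 counts in the WT mock libraries and 20.8, 16.01, 24.3 and 25.1% in WT NaCl. In dog1-3 they were 41.3, 38.0, 32.1 and 41.4% in mock and 33.1, 35.4, 37.3 and 27.9% in NaCl. Every dog1-3 library was thus above every WT library of the same treatment. The mean log2 ratio differed between dog1-3 and WT by 0.87 in mock and by 0.65 in NaCl, higher in 4 of 4 dog1-3 libraries each time. In both cases the exact two-sided permutation test gave the smallest p that 4 against 4 libraries allow, 0.0286, which became 0.0571 when adjusted over the 4 comparisons and did not pass. With only these comparisons at that smallest p, a larger difference could not have given a lower adjusted p. The threshold therefore cannot decide here. The ratio differed by 0.03 between NaCl and mock in WT (exact permutation p = 0.943) and by -0.19 in dog1-3 (exact permutation p = 0.171).

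**Figure D4:**
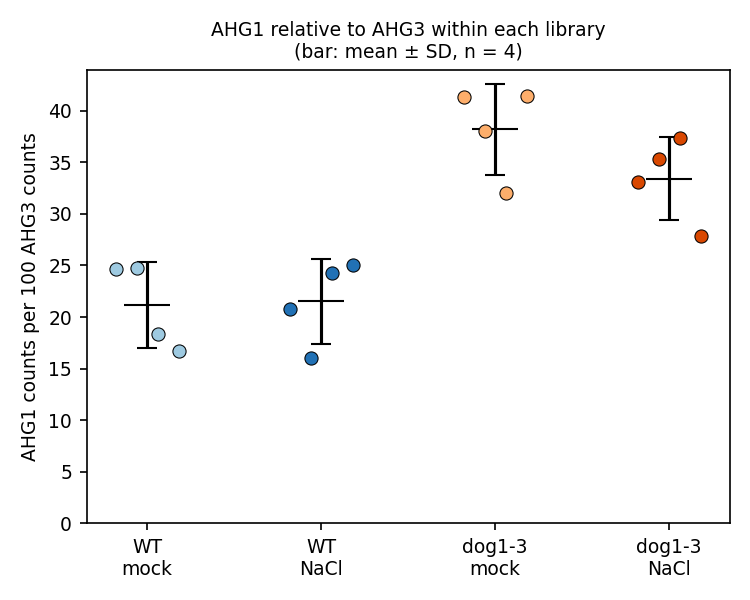
AHG1 counts per 100 AHG3 counts in each library (linear axis from 0). Points are libraries and bars the mean ± SD of 4 libraries per group. The dog1-3 libraries lie between 27.9 and 41.4 and the WT libraries between 16.01 and 25.1.

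Members were also compared with each other by their pattern, as the root mean square difference of centred log2 CPM over the 16 libraries. AHG3 and HAI2 were nearest to each other (0.15), as were AHG1 and HAI3 (0.24). ABI1 had the most distant nearest member, HAB2 at 0.51. Such a distance also depends on how much a gene varies over the libraries. The SD of log2 CPM was 0.31 for AHG3 and 0.38 for HAI2, against 0.68 for AHG1 and 0.58 for HAI3. For ABI1 it was 0.30, less than its distance to HAB2. Among all tested genes, the nearest to AHG1 were AT4G21020 (0.15) and AT1G72100 (0.16), which encode late embryogenesis abundant proteins, and the oleosin gene OLEO3 (0.17). AT4G21020 had log2FC of 1.38 and 1.24 in dog1-3 against WT in mock and NaCl and of 0.07 and -0.07 for NaCl in WT and dog1-3. The nearest to AHG3 were TIP (AT5G24590, 0.09), bHLH121 (AT3G19860, 0.11) and SCL14 (AT1G07530, 0.11), all transcription factor genes.

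The other steps of the pathway were described by lists of genes, whose counts of calls stand against the shares of all tested genes given above: 9.94% higher and 8.44% lower for dog1-3 against WT in mock, 8.16% and 7.54% in NaCl, and 9.46% and 7.07% for NaCl in WT and 7.53% and 7.16% in dog1-3. Counts at an unadjusted p under 0.05 stand against other shares. These were 19.3% higher and 19.1% lower for dog1-3 against WT in NaCl. For NaCl they were 23% and 21.1% in WT and 19.9% and 18.7% in dog1-3, and for the interaction 6.51% in either direction. Of the 14 PYR/PYL receptors, which bind ABA and then block the phosphatases, 9 were tested. In dog1-3 against WT, 2 rose and 4 fell in mock, and 2 rose and 5 fell in NaCl, with medians of -0.56 and -0.65. PYL6 fell from 21.8 ± 1.84 to 4.99 ± 1.00 CPM in mock (mean ± SD, n = 4 each, with a log2FC of -2.11, edgeR adjusted p = 4.87e-09), and PYL7 rose from 1.93 ± 0.578 to 8.66 ± 0.727 CPM (mean ± SD, n = 4 each, with a log2FC of 2.11, edgeR adjusted p = 8.10e-08). In NaCl PYL4 fell from 26.2 ± 4.71 to 5.29 ± 1.52 CPM (mean ± SD, n = 4 each, with a log2FC of -2.23, edgeR adjusted p = 1.97e-09) and PYL6 by 1.99 on the log2 scale. Salt raised PYL7 in WT (log2FC 1.46) and in dog1-3 (0.59), and lowered PYL6 in WT (log2FC -0.79) and PYL4 in dog1-3 (log2FC -1.20). In all, 1 receptor rose and 2 fell in WT, and 1 rose and 1 fell in dog1-3. The rise of PYL7 in dog1-3 lay just past the fold limit (edgeR adjusted p = 0.0442). DESeq2 called 0 receptors higher and 1 lower in that comparison.

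Of the 10 SnRK2 kinases, a family that includes targets of the phosphatases, 7 were tested. Only SNRK2.10 was called, in dog1-3 against WT in mock, where it rose from 63.8 ± 8.60 to 104 ± 14.3 CPM (mean ± SD, n = 4 each, with a log2FC of 0.71, edgeR adjusted p = 4.90e-07). In NaCl 0 were called by edgeR or DESeq2, with 2 higher and 1 lower at an unadjusted p under 0.05. In the salt comparisons 0 were called by either tool and 0 had such a p.

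Of the 11 transcription factors that act below the kinases or beside them, 10 were tested, and 4 rose and 1 fell in dog1-3 against WT in mock, as did 2 and 1 in NaCl. EEL, a bZIP factor of the late embryo, rose from 5.88 ± 1.31 to 15.2 ± 2.31 CPM in mock (mean ± SD, n = 4 each, with a log2FC of 1.33, edgeR adjusted p = 3.70e-06) and by a log2FC of 1.297 in NaCl. BZIP67, a gene of low level, rose from 3.92 ± 0.392 to 6.59 ± 2.57 CPM in mock (mean ± SD, n = 4 each, with a log2FC of 0.81, edgeR adjusted p = 0.0270). DESeq2 called 3 of the factors higher and 1 lower in mock. ABI4 fell from 49.5 ± 4.56 to 30.3 ± 2.51 CPM in NaCl (mean ± SD, n = 4 each, with a log2FC of -0.72, edgeR adjusted p = 1.51e-05). Salt called 0 of the 10 by edgeR or DESeq2 in either genotype, with 3 higher in WT and 2 higher in dog1-3 at an unadjusted p under 0.05.

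Of the 13 genes of ABA synthesis and breakdown 7 were tested. In dog1-3 against WT, 2 rose and 1 fell in mock and 3 rose and 1 fell in NaCl. ABA1, the zeaxanthin epoxidase, rose from 22.8 ± 1.0996 to 43.6 ± 6.16 CPM in mock (mean ± SD, n = 4 each, with a log2FC of 0.94, edgeR adjusted p = 1.22e-07) and by a log2FC of 0.88 in NaCl, and NCED9, which cleaves carotenoids to the ABA precursor, rose in mock by a log2FC of 1.26. CYP707A2, which breaks down ABA in seeds, fell in NaCl by 0.79 on the log2 scale (adjusted p = 0.00140). In WT salt raised AAO3 (log2FC 1.00, edgeR adjusted p = 0.0142), the last enzyme of ABA synthesis, and lowered NCED6 (log2FC -0.84, edgeR adjusted p = 0.000764). The mean level of AAO3 was low, 2.66 CPM in WT mock and 5.65 CPM in WT NaCl. DESeq2 called 0 of the 7 higher and 1 lower in that comparison, so that the call of AAO3 rests on edgeR alone. In dog1-3 salt called 0 of the 7 by edgeR or DESeq2, with 2 higher at an unadjusted p under 0.05.

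Of the 13 genes known to be induced by ABA, 7 were tested, and all 7 rose in dog1-3 against WT in mock and 6 in NaCl, with medians of 1.27 and 1.009. DESeq2, run on all 13 without the filter on low counts, called 7 higher and 1 lower in mock. In NaCl it called 6 higher and 0 lower. RD29B rose from 116 ± 13.6 to 479 ± 45.4 CPM in mock (mean ± SD, n = 4 each, with a log2FC of 2.04, edgeR adjusted p = 2.63e-19) and by a log2FC of 1.52 in NaCl. EM6, a late embryogenesis abundant protein, rose by a log2FC of 1.46 in mock, and EM1 by 1.38 in NaCl. Salt raised 5 of the 7 in WT and 2 in dog1-3. The dehydrin RAB18 rose with salt by a log2FC of 1.20 in WT and 0.93 in dog1-3, and EM6 by 1.0997 and 0.94. The interaction called 0 genes of these 5 lists by edgeR or DESeq2, with 0 to 2 genes of each list at an unadjusted p under 0.05.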

How the data were processed

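The 16 libraries of 3'RNA-seq came from seeds, with 4 in each of 4 groups named by the sample labels. The authors reverse-transcribed 500 ng of total RNA with barcoded oligo(dT) primers, pooled mock and NaCl reactions separately and deposited unnormalized read counts per locus for each library. Their processing notes name STAR 2.7.8a, DESeq2 and the build TAIR10. The counting program, its use of strand and the handling of molecular identifiers are not given in the sources used here. Intervals come from the spread between libraries and do not cover errors that these steps share across libraries.

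From the deposited counts, fold changes were computed in R 4.3.3 with edgeR 4.0.16 (TMM scaling, filterByExpr at a minimum count of 10, quasi-likelihood F test, a single model with 4 group means over all libraries, Benjamini-Hochberg adjustment over 12697 genes). Called genes had an adjusted p under 0.05 and changed over 1.5-fold, and interactions at the adjusted p alone. Standard errors are the log2FC divided by the square root of F. The AHG1 to AHG3 ratio used counts plus 0.5 and exact permutation tests. Names, overlaps and promoter windows came from RefSeq's TAIR10.1 annotation. The count files hold locus identifiers and no coordinates, and no coordinates were converted.

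The members and gene lists were chosen with earlier results of these data known. Named genes are the 9 members, DOG1, at most 2 called genes per list and comparison with the largest log2FC, and the nearest genes in pattern. Alternatives covered DESeq2 1.42.0, scaling, the filter, the 20 genes with the highest counts, the libraries in the fit, a replicate block, the thresholds and the omission of single libraries. The scripts were tested on simulated data. Within groups, counts of any 2 libraries differed with a chi-square per degree of freedom of 1.51 to 6.16, and none was counted as a copy.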

Additional observations from a re-analysis of the deposited data

How the results depend on the processing

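Of 976 refits of the 40 member fold changes, 951 kept their direction and their side of the threshold. The counts of members called moved most with the threshold, and the shares of all genes under each threshold are given with the comparisons. In a test against the 1.5-fold limit itself (edgeR's glmTreat) 0 members were called for NaCl in WT, 0 for NaCl in dog1-3, 4 for dog1-3 against WT in mock (AHG1, HAI3, HAI2 and HAB1) and 3 in NaCl. Without the fold limit 4 were called for NaCl in WT, 2 for NaCl in dog1-3, 8 in mock and 6 in NaCl for the genotype. Leaving out each library in turn gave 1 to 2 for NaCl in WT, 1 to 2 for NaCl in dog1-3, 6 to 7 in mock and 4 to 5 in NaCl for the genotype, and 0 for the interaction. Scaling by library size alone put the all-gene median log2FC at -0.12 and -0.19 for NaCl in WT and dog1-3 and to -0.18 and -0.25 for dog1-3 against WT in mock and NaCl. It lowered the share of calls that were higher from 57.2 to 35.0%, 51.3 to 21.7%, 54.1 to 29.6% and 52.0 to 19.7% in the same order. With it 1 member was called for NaCl in dog1-3, AHG3 was under the fold limit in mock (0.45) and HAB1 in NaCl (0.53), both for dog1-3 against WT, and the values of AHG3 (-0.064) and HAI2 (-0.15) for NaCl in dog1-3 changed sign. HAI2 also changed sign there without dog1-3 mock replicate 1, in a range of -0.017 to 0.077 over single libraries left out. The cause was not tested, beyond the shift of all genes given above.

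Replicate numbers recur in all groups, but the deviations of same-numbered libraries correlated at -0.063 to 0.094 in 24 pairs, so that the numbers were not taken to pair libraries. With the replicate number as a block all 40 member results kept their call and direction, with AHG1 at 1.4986 and AHG3 at 0.63 in dog1-3 against WT in mock. Within numbers, the AHG1 to AHG3 ratio differed by 0.87 (mock) and 0.65 (NaCl) with an exact sign-flip permutation p of 0.125 in both, the smallest that 4 pairs allow, and 0.25 when adjusted over the 4 comparisons.

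Depth limits HAI1 most, which had at most 18 counts in any library, and next ABI2, with as few as 11.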

Other observations

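Outside clade A, 60 further genes carry the protein phosphatase 2C name in the annotation, of which 43 were tested. Salt raised 4 and lowered 1 of them in WT, and raised 3 and lowered 4 in dog1-3, where 9.46% and 7.07% of all tested genes rose and fell in WT and 7.53% and 7.16% in dog1-3. In dog1-3 against WT, 6 rose and 3 fell in mock and 7 rose and 5 fell in NaCl, against 9.94% and 8.44% of all genes in mock and 8.16% and 7.54% in NaCl, with medians of 0.13 and 0.07. AT4G31860 rose from 8.94 ± 2.12 CPM in WT NaCl to 28.1 ± 5.91 CPM in dog1-3 NaCl (SD, n = 4 each; log2FC 1.69, adjusted p = 4.02e-09 from edgeR). AT1G47380 fell in dog1-3 against WT, with a log2FC of -1.896 in mock (edgeR adjusted p = 3.16e-05) and -1.66 in NaCl (edgeR adjusted p = 0.00120). Its mean level was low, 6.04 and 1.60 CPM in WT and dog1-3 mock and 5.75 and 1.82 CPM in NaCl. AT5G26010 rose in mock by a log2FC of 1.69, from a low level of 1.79 ± 0.805 CPM in WT to 5.98 ± 1.77 CPM in dog1-3 (mean ± SD, n = 4 each). With salt in WT, AT4G11040 rose from 1366 ± 146 to 2739 ± 136 CPM (mean ± SD, n = 4 each, with a log2FC of 1.00, edgeR adjusted p = 4.90e-12). AT5G27930, a gene of low level, fell with salt by 1.20 on the log2 scale in WT and by 1.52 in dog1-3, where its level was 2.24 CPM in NaCl. AT1G09160 fell with salt in dog1-3 by 1.12 on the log2 scale.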
